A study of Mus musculus with 6 samples.

Results

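The genes of the cytosolic ribosome were followed through the RNA of mouse embryonic stem cells (mESCs) that carried a deletion at *Wnt6*. The members were chosen by symbol alone, as every gene named *Rpl* or *Rps* with a number, the *Rplp* genes of the stalk and *Rpsa*. This rule found 89 of the 55385 genes counted, 53 of the large subunit and 36 of the small subunit. In the annotation 83 of them are protein-coding and 6 are pseudogenes that carry a gene-like symbol (*Rpl32l*, *Rpl6l*, *Rps3a2*, *Rps3a3*, *Rps4l* and *Rps12l1*). *Rps12l1* had 0 counts in all 6 libraries, and the other 88 members passed the filter on low counts.

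Polyadenylated RNA was sequenced from wild-type (WT) mESCs and from mESCs in which CRISPR-Cas9 editing had removed the *Wnt6* region from 1 allele (heterozygous) or from both alleles (homozygous), with 2 replicate libraries of each genotype. By the study's methods the cells are of the G4 line, a hybrid of the 129/Sv and C57BL/6 backgrounds, and edited lines were picked as clones by PCR, so that the deletion cannot be told apart from other differences between clones. All 3 genotypes grew with LIF on CD1 feeder cells, and the counts do not separate the RNA of feeders from that of mESCs. The methods state biological triplicates, and nothing in the labels says whether the 2 libraries of a genotype came from separate cultures, so the p-values measure only the spread between these libraries, which may be technical.

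A ribosome is built from ribosomal RNA and a set of ribosomal proteins that are needed in nearly equal number, and its making takes a large part of the biosynthetic effort of a dividing cell. Most ribosomal protein genes have short, intron-containing transcription units that are active in every cell. Their mRNAs usually begin with a run of pyrimidines, the 5′ terminal oligopyrimidine (TOP) tract, through which the mTOR pathway and the binding protein Larp1 adjust their translation. Several members also have tissue-restricted paralogs or processed pseudogenes, which are intronless copies that can share reads with the parent gene.

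The libraries held between 23813912 and 28964706 counts, and 80 members had at least 1000 counts in every one of them. *Wnt6* had 11 and 13 counts in WT cells, 6 and 4 in heterozygous cells, and 0 in both homozygous libraries. The summed level of 10 pluripotency genes, among them *Pou5f1* and *Nanog*, lay between 3061 and 3576 CPM (counts scaled to a common library total, with TMM factors that adjust it for composition) in the 6 libraries. The summed level of 28 fibroblast genes, which the feeder cells express, was 3428 and 3435 CPM in WT cells, 2520 and 2496 CPM in heterozygous cells, and 1633 and 1620 CPM in homozygous cells, and none of the 28 was at 0. The fibroblast sums of the 3 genotypes did not overlap. In bulk RNA, fewer cells of a type and less RNA per cell cannot be told apart.

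In WT cells the members were among the most abundant mRNAs. Expressed as CPM per kilobase of an annotated transcript, the 83 protein-coding members had a median of 857, with quartiles of 601 and 1357, against a median of 5.26 over the 16940 tested genes with a length. Of the 100 highest genes on this scale, 58 were members. The highest were *Rps12* at 2524 ± 46.7 (SD, n = 2), *Rplp1* of the stalk at 2218 ± 62.4, *Rpl8* at 2032 ± 43.7, *Rpl4*, which lines the exit tunnel, at 2003 ± 88.2, and *Rps18* of the small subunit head at 1784 ± 43.2 CPM per kilobase. *Rpl8* and *Rpl4*, neighbors in this order, differed by less than the SD of *Rpl4*. A level per kilobase depends on the transcript taken as reference, and the transcripts taken for *Rps15a* and *Rps20* are 5130 and 3706 bases long, which lowers both values.

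**Figure D1:**
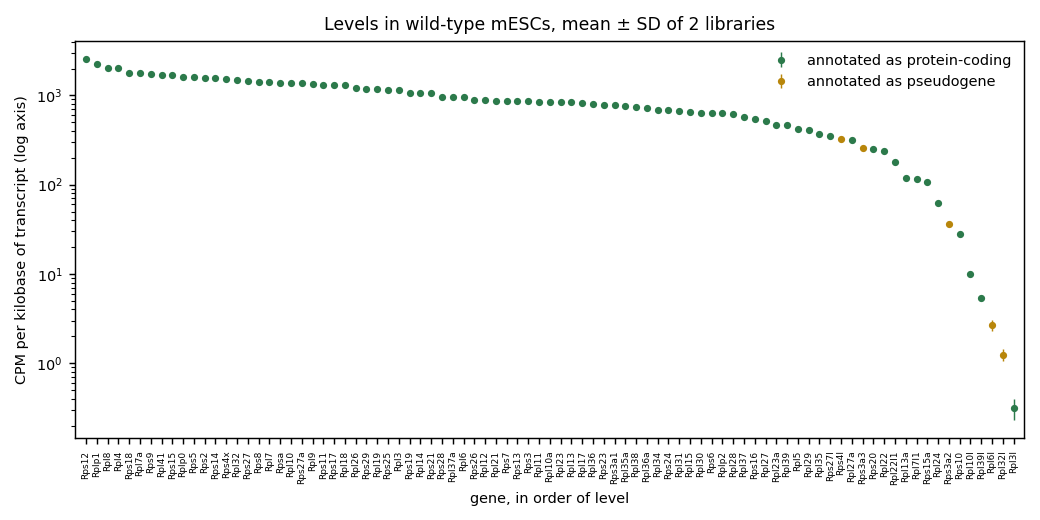
Level of 87 tested members in WT mESCs, as CPM per kilobase of transcript on a log axis, with genes in order of level. Points are means and bars the SD of 2 libraries, green for genes annotated as protein-coding and brown for genes annotated as pseudogenes; the quartiles of the coding members are 601 and 1357, and the line falls away to 0.314 for *Rpl3l*.

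The paralogs were expressed below their widely active partners. *Rpl3l*, the striated muscle counterpart of *Rpl3*, stood at 0.314 ± 0.0813 CPM per kilobase against 1139 ± 23.7 for *Rpl3*. *Rpl10l*, an autosomal copy of the X-linked *Rpl10* known from the male germ line, stood at 9.98 ± 0.0943 against 1382 ± 18.3, and *Rpl39l* at 5.39 ± 0.0856 against 460 ± 18.3 for *Rpl39*. These 3 tissue-restricted genes were thus at or near the bottom of the family. *Rpl22l1* reached 179 ± 1.15 beside 236 ± 8.50 for *Rpl22*, the closest pair of the set on this scale. The transcripts taken for them are 552 and 2048 bases long, and their WT means without regard to length were 98.7 and 482 CPM. *Rps27l*, which p53 is known to induce, reached 354 ± 9.31 beside 1458 ± 85.7 for *Rps27*, and *Rpl7l1*, whose product acts in ribosome assembly, 117 ± 3.44 beside 1401 ± 41.1 for *Rpl7*. *Rps4l*, annotated as a transcribed pseudogene, stood at 326 ± 12.8 CPM per kilobase, against 1532 ± 34.5 for its X-linked relative *Rps4x*.

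Reads of a ribosomal protein gene can also fall on its copies elsewhere in the genome. In the counted annotation 311 pseudogenes are named after a member, 63 members have at least 1, and together they held between 0.0387% and 0.0442% of all counts. Their counts exceeded 5% of the parent's in 4 cases in WT cells, at 26.1% for *Rps10*, 13.5% for *Rps13*, 8.47% for *Rps15a* and 5.51% for *Rpl3*. The sources used here do not give how reads with several matches were counted. That uncertainty applies to every member with copies elsewhere, and not only to these 4 and the 6 annotated as pseudogenes. Counts on the named pseudogenes would not show reads that were discarded. *Rps10*, with the highest such share, stood at only 28.0 ± 0.0773 CPM per kilobase.

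Some sequence features that the choice by symbol did not use were more frequent at the start sites of the members than at those of all genes. RefSeq promoters (GRCm38.p6) were at hand for 64 members, with 76 start sites. A run of at least 8 C or T bases on the transcribed strand within 20 bases of the start was present at 32 of these starts (42.1%), against 16.0% of 32851 starts of all genes, and the median longest run was 7 against 5 bases. The motif CCGGAAG, searched on both strands of the 300 bases around the start, was present at 27 starts (35.5%), against 8.86% of all starts and 15.6% of the 15200 starts of tested genes. TATAA on the transcribed strand, 15 to 40 bases before the start, was present at 5 (6.58%, against 3.52%). A match describes the letters in a window and not a bound site. Members whose levels are taken up below are shown here from 30 bases before the start through the following 20, 5′ to 3′ on the strand of the gene, with the longest pyrimidine run in capitals.
Rpl13, chr8:123102320-123102369, plus strand: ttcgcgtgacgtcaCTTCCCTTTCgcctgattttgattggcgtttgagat
Rps6, chr4:86857348-86857397, minus strand: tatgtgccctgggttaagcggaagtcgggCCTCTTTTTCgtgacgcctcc
Rps27, chr3:90213629-90213678, minus strand: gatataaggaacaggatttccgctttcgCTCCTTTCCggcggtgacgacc
Rpl22l1, chr3:28805478-28805527, plus strand: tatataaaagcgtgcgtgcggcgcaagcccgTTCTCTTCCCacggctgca
Rps10, chr17:27635225-27635274, minus strand: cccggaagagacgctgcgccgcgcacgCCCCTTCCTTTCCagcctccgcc
Rpl10l, chr12:66284382-66284431, minus strand: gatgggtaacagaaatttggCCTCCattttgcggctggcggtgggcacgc
The runs of *Rps6*, *Rps27* and *Rps10* span the annotated start, with 10, 9 and 13 pyrimidines, as a TOP tract does. That of *Rpl13* has 10 and lies upstream of the start, and that of *Rpl22l1* has 10 and lies just inside the transcript. In *Rpl10l*, a copy that arose by retrotransposition, the longest run in the window has 5 bases and lies upstream.

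The share of all counts taken by the members differed little between the 3 genotypes. It was 6.45% and 6.62% in WT (6.54 ± 0.122, SD, n = 2), 6.46% and 6.30% in heterozygous cells (6.38 ± 0.113) and 6.81% and 6.49% in homozygous cells (6.65 ± 0.230). The ranges of WT and homozygous libraries overlapped, as did those of WT and heterozygous libraries, while both heterozygous libraries lay below both homozygous libraries. The large subunit members made up 3.71 ± 0.0678% and the small subunit members 2.83 ± 0.0538% of the WT counts. On the TMM scale the members summed to 63626 and 65869 CPM in WT, 63509 and 61938 for the heterozygotes, and 70860 and 66203 for the homozygotes. On this scale both homozygous libraries were above all others, and homozygous replicate 1 stood apart from its partner.

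Gene by gene, both homozygous libraries again stood highest, while WT and heterozygous libraries overlapped. Relative to each gene's mean over the 6 libraries, the median member stood at -0.041 and 0.013 (log2) in the WT libraries. It stood at -0.035 and -0.060 in those of heterozygous cells and at 0.114 and 0.020 in those of homozygous cells. WT replicate 2 and homozygous replicate 2 thus differed by less than 0.0456, the SD of these medians within genotypes. The chi-square per degree of freedom between the replicates of a genotype was 5.84 (WT), 27.1 (heterozygous) and 13.0 (homozygous) over the 88 members. The replicates thus differed by more than counting error, which is small in genes this abundant, and the spread between libraries sets the precision of every comparison that follows.

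**Figure D2:**
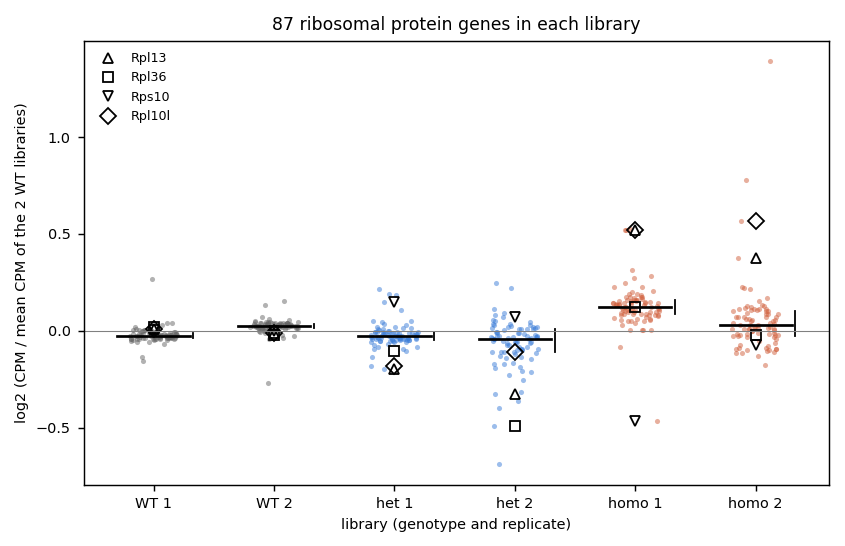
Each point is 1 of 87 tested members, as log2 of its CPM relative to the mean CPM of the 2 WT libraries, in each of the 6 libraries (het, heterozygous; homo, homozygous); horizontal lines are medians and vertical lines quartile ranges over members, and 4 members are marked by open symbols. The cloud of homozygous replicate 1 sits above the others, while homozygous replicate 2 lies nearer to WT.

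To ask whether losing 1 copy of the *Wnt6* region altered the ribosomal protein mRNAs, heterozygous cells were compared with WT cells. Few members changed. With edgeR's quasi-likelihood test and Benjamini-Hochberg adjustment over 16951 genes, 3 of the 88 members were lower at an adjusted p below 0.05, against 2.91% of all genes tested, and 0 were higher, against 2.23%. All 3 encode large subunit proteins, among them *Rpl36* and *Rpl13*. At an unadjusted p below 0.05, 14 members were lower and 1 was higher, and DESeq2 found 1 lower (*Rpl13*) and 0 higher at its adjusted threshold. The share of all genes passing these other rules was not taken, so these counts have no background to be read against. The median log2 fold change of the members was -0.04 (quartiles -0.08 and -0.01), against 0.00 over all genes, and 21 members had a positive value, against 50.0% of all genes. No member passed the study's own threshold, an absolute log2 fold change above 1 beside the adjusted p, which 0.0413% of all genes passed upward and 0.124% downward. Both heterozygous libraries lay below both WT libraries for 37 members, where 24.0% of all genes did so, and above them for 6, where 23.7% did so.

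*Rpl13* was at 655 and 645 CPM in WT, 567 and 518 in heterozygous cells and 931 and 843 in homozygous cells. The 3 genotypes did not overlap, with heterozygous cells lowest and homozygous cells highest. The heterozygous difference was a log2 fold change of -0.26 (SE 0.0495, adjusted p = 0.00266), or a fall of 16.5%.

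*Rpl36* was at 311 and 301 CPM in WT, 285 and 217 in heterozygous cells and 333 and 301 in homozygous cells. Heterozygous replicate 2 alone was far below the rest. The log2 fold change was -0.29 (SE 0.0780, adjusted p = 0.0354), and -0.10 (adjusted p = 0.579) without that library. The call was also lost in DESeq2 (adjusted p = 0.576) and with robust estimation in edgeR (adjusted p = 0.525). Without heterozygous replicate 2, 0 members were called lower, and 8 were without heterozygous replicate 1. The count also varied without a WT library and without a homozygous library. Homozygous libraries enter this comparison through the low-count filter, the scaling, the adjustment over all genes and the shared estimate of spread. The share of all genes passing was not taken for these fits.

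*Rpl3l* and *Rpl32l* had the widest gaps between the heterozygous replicates, but both had few counts. Among the other members, those with the widest gap were low in replicate 2. Relative to replicate 1, it stood at -0.39 on the log2 scale for *Rpl36* (GC content of the transcript 60.8%), -0.33 for *Rplp1* (57.3%), -0.31 for *Rps4l* (61.3%) and -0.27 for *Rplp2* (55.0%). Not every member of high GC content had such a gap, and *Rps10* (60.3%) stood at -0.08. Across the 88 members the difference of the heterozygous replicates had a Pearson's r of -0.50 with GC content, against -0.21 for the WT and 0.02 for the homozygous replicates and -0.22 across all 16940 genes in the heterozygous replicates. The log2 fold change between heterozygous and WT cells had an r of -0.43 with GC content across the members. These correlations describe genes that share the same libraries and are not independent replicates, and the part of GC content in the 3 calls was not tested.

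**Figure D3:**
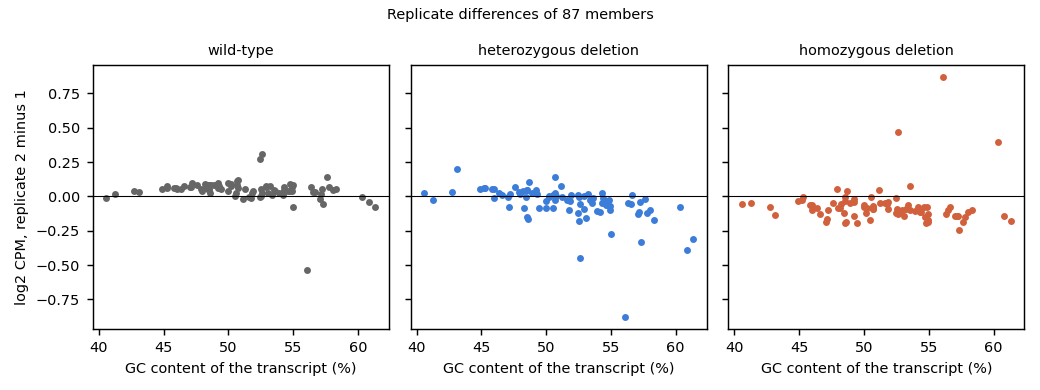
Log2 difference in CPM between replicate 2 and replicate 1 of each genotype (vertical axis) against the GC content of the transcript in percent (horizontal axis) for 87 tested members, 1 point per gene. In the heterozygous panel the points fall with GC content (r = -0.50), with *Rpl36* at -0.39. The lowest points there are *Rpl3l*, with 12 and 7 counts, and *Rpl32l*, with 14 and 11 counts.

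To ask what the loss of both copies did, homozygous cells were compared with WT cells. The members tended to be slightly higher. Of the 88 members, 19 were higher at an adjusted p below 0.05, where 10.9% of all genes were, and 0 were lower, where 10.5% of all genes were. Of the 19, 12 belonged to the large and 7 to the small subunit. By unadjusted p, 35 members were higher and 1 was lower, and DESeq2 called 18 higher and 0 lower. Here too the share of all genes was not taken for these other rules. The median log2 fold change was 0.07 (quartiles 0.03 and 0.12), against -0.01 over all genes, and 74 of 88 members had a positive value, against 48.9% of all genes. Both homozygous libraries lay above both WT libraries for 46 members, against 28.4% of all genes, and below them for 1 (*Rps10*), against 29.4%. No member passed the study's threshold, which 0.271% of genes passed upward and 1.86% downward.

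For the alternative fits that follow, the share of all genes passing was not taken either. The count of higher members rests on individual libraries and on the scaling. It was 5 without WT replicate 1, 9 without homozygous replicate 1 and 37 without homozygous replicate 2. Scaled by total counts alone, 7 members were higher and 2 lower, with a median of 0.02. Under that scaling the median of all genes moved to -0.06, so that the members stood 0.08 above it under either scaling, with 75 of 88 above the median of all genes in both cases.

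Of the differences passing the test, those of *Rpl10l* and *Rpl13* were the largest. *Rpl10l* had 302 and 259 counts in WT, 224 and 252 in heterozygous cells and 335 and 393 in homozygous cells, or 10.3 and 10.1 CPM in WT and 14.6 and 15.1 CPM in homozygous cells. Its homozygous libraries stood apart, and the log2 fold change was 0.54 (SE 0.0897, adjusted p = 0.000157). Its X-linked partner *Rpl10* went from 1094 and 1115 CPM in WT to 1197 and 1193 in homozygous libraries, a log2 fold change of 0.11 (adjusted p = 0.0351). That call held under 8 of 17 alternatives and was lost with any 1 of the 6 libraries left out (adjusted p from 0.0557 to 0.261) and with total counts only (log2 fold change 0.06, adjusted p = 0.220). *Rpl13*, with the values given above, had a log2 fold change of 0.45 (SE 0.0493, adjusted p = 1.08e-06).

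*Rpl13* (chromosome 8, 123102350 to 123105244, plus strand) lies on a chromosome whose genes as a whole moved with it. Over the 890 tested genes of chromosome 8, the median was -0.12 (log2) in heterozygous cells and 0.39 in homozygous cells relative to WT, and 547 of them passed as higher in the latter. *Rpl13* thus had the sign of its chromosome's median in both comparisons. The part of this shift in its calls was not tested. Among the 81 protein-coding members on other chromosomes, 17 were higher and 0 lower, with a median of 0.07.

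Members with known roles of their own showed small differences. *Rps6*, the substrate of S6 kinase downstream of mTOR, was at 542 and 579 CPM in WT, 553 and 540 in heterozygous cells and 665 and 630 in homozygous cells, and did not overlap between homozygous and the other cells. It was higher than in WT by a log2 fold change of 0.21 (SE 0.0435, adjusted p = 0.00150), and by 0.16 without WT replicate 1 (adjusted p = 0.0699). *Rps27a*, made as a fusion with ubiquitin, was at 850 and 902 CPM in WT, 872 and 902 in heterozygous cells and 1023 and 1021 in homozygous cells. It was higher by 0.22 on the log2 scale (SE 0.0407, adjusted p = 0.000439), a rise of 16.7%. *Rpl22l1* rose from 99.1 and 98.2 CPM to 120.05 and 115 (log2 fold change 0.25, adjusted p = 0.000357), while *Rpl22* was at 470.0 and 495 CPM in WT and 504 and 499 in homozygous cells (0.06, adjusted p = 0.370). *Rps27* rose by 0.17 (adjusted p = 0.0113), a call lost without WT replicate 1 (0.11) and without homozygous replicate 1 (0.13). It was also lost with total counts only (0.11, adjusted p = 0.0590). The paralog *Rps27l* had a value of 0.12 that missed the threshold (adjusted p = 0.0640).

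Other members of known function did not pass in homozygous against WT cells. *Rpl5* and *Rpl11*, which with 5S RNA bind and restrain Mdm2, had log2 fold changes of 0.10 (adjusted p = 0.104) and 0.03 (adjusted p = 0.632). *Rps19*, the gene most often mutated in Diamond-Blackfan anemia, was at 812 and 842 CPM in WT and 897 and 811 in homozygous libraries, which overlapped. *Rps14*, whose loss marks the 5q- syndrome, was at 919 and 946 in WT and 990 and 864 in homozygous libraries, which also overlapped. *Rpl38*, known for its part in the translation of Hox mRNAs, had a log2 fold change of 0.05 (adjusted p = 0.445). *Rps10* was the one member whose homozygous libraries were both below WT, with 730 and 632 counts in WT, 685 and 693 in heterozygous and 411 and 614 in homozygous cells. Its log2 fold change was -0.25 (SE 0.0931, adjusted p = 0.0642), with homozygous replicate 1 the lowest library.

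**Figure D4:**
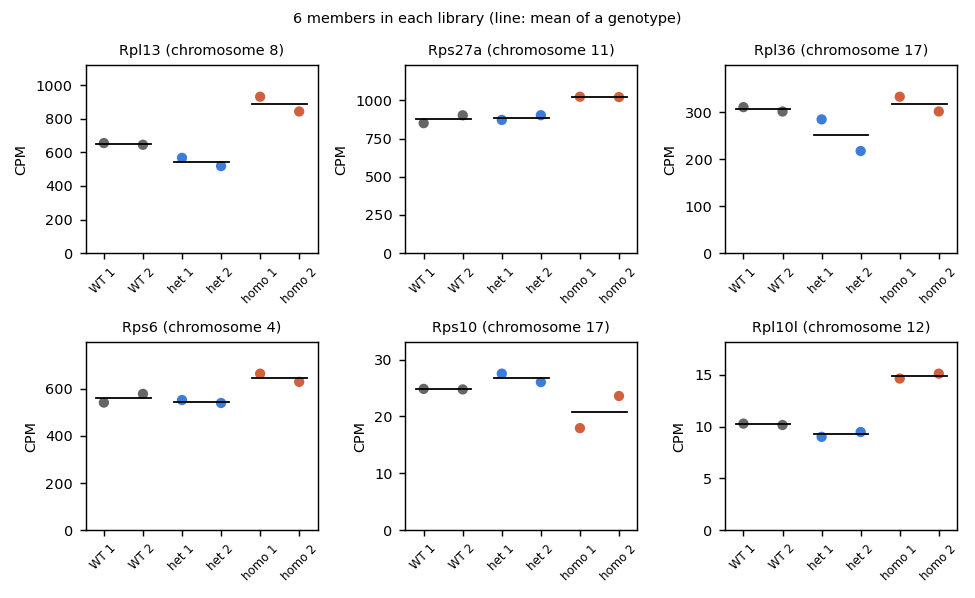
CPM of 6 members in each library, with a line at the mean of each genotype and each axis starting at 0. *Rpl13* is lowest in heterozygous and highest in homozygous libraries; heterozygous replicate 2 is low in *Rpl36*, homozygous replicate 1 is low in *Rps10*, and both homozygous libraries are highest in *Rps6*, *Rps27a* and *Rpl10l*.

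The homozygous and heterozygous cells were then compared with each other, since each had been set against the same WT libraries. This was the comparison with the most members past the threshold. Of 88 members, 46 were higher in homozygous cells (52.3%, where 12.9% of all genes were) and 2 were lower (12.9% of all genes). The median was 0.13 (quartiles 0.07 and 0.16), against -0.02 over all genes, and 83 members had a positive value, against 46.4% of all genes. Both homozygous libraries lay above both heterozygous libraries for 63 members (28.6% of all genes) and below them for 3 (32.8%). The large subunit had 28 higher members with a median of 0.13, and the small subunit 18 with a median of 0.13. Among protein-coding members off chromosome 8, 43 of 81 were higher and 2 lower.

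No share of all genes passing was taken under the alternative fits of this comparison. The count of higher members too varied between libraries. It was 14 without heterozygous replicate 2, 18 without homozygous replicate 1, 31 without heterozygous replicate 1 and 62 without homozygous replicate 2. Total counts alone gave 16 higher and 4 lower, with a median of 0.06 for the members and -0.09 for all genes. The members then stood 0.15 above the median of all genes under either scaling, with 84 of 88 above it.

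The mRNAs of the 3 P stalk proteins, which recruit the elongation factors to the ribosome, were called higher than in heterozygous cells, each with dependence on heterozygous replicate 2. *Rplp0* was at 2227 and 2089 CPM in heterozygous and 2469.8 and 2289 in homozygous libraries (log2 fold change 0.14, adjusted p = 0.0246). *Rplp1* was at 1083 and 862 CPM against 1224 and 1034 (0.21, adjusted p = 0.0450), so its groups overlapped. *Rplp2* was at 595 and 493 CPM against 658 and 602 (0.21, adjusted p = 0.0181). Both *Rplp1* and *Rplp2* were low in heterozygous replicate 2, and without it none of the 3 was called (adjusted p = 0.294 for *Rplp0*, 0.637 for *Rplp1* and 0.399 for *Rplp2*). Without homozygous replicate 1 all 3 calls were also lost, with log2 fold changes of 0.09, 0.09 and 0.15 for *Rplp0*, *Rplp1* and *Rplp2*. The same held with total counts only (adjusted p = 0.158, 0.166 and 0.0962 in that order). *Rplp1* and *Rplp2* were not called with DESeq2 (adjusted p = 0.360 and 0.210) or with robust estimation (0.443 and 0.225). For *Rplp1*, a filter of 10 counts in all libraries gave an adjusted p of 0.0619. Against WT, homozygous cells had stalk log2 fold changes of 0.12, 0.03 and 0.04, none past the threshold.

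Members already described again had wide differences, *Rpl13* (0.71, SE 0.0496), *Rpl10l* (0.69, SE 0.0921) and *Rpl36* (0.34, SE 0.0781). The calls of *Rpl13* and *Rpl10l* held under all 17 alternatives. That of *Rpl36* was lost with DESeq2 (adjusted p = 0.127), with robust estimation (adjusted p = 0.251) and without heterozygous replicate 2, where its log2 fold change was 0.15 (adjusted p = 0.0904). *Rpl3l* was the only member past the study's threshold (log2 fold change 1.24, SE 0.439, adjusted p = 0.0447), which 0.496% of all genes passed upward and 0.897% downward. It had 15 and 9 counts in WT, 12 and 7 in heterozygous cells and 14 and 29 in homozygous cells. Its call rests on these few counts. The log2 fold change was 0.72 without homozygous replicate 2 and 0.85 without heterozygous replicate 2, and the call was lost in both cases. With total counts only it was lost as well (adjusted p = 0.0599). Of the 2 lower members, *Rps10* had a log2 fold change of -0.36 (SE 0.0929, adjusted p = 0.00730), and -0.18 (adjusted p = 0.143) without homozygous replicate 1. *Rpl24*, which forms a bridge between the subunits, was at 45.1 and 49.8 CPM in heterozygous and 42.0 and 39.4 in homozygous libraries (-0.22, SE 0.0649, adjusted p = 0.0151), with WT at 40.3 and 43.6. This call was lost with DESeq2 (adjusted p = 0.0730), without heterozygous replicate 2 (-0.15, adjusted p = 0.191) and without homozygous replicate 2 (-0.18, adjusted p = 0.0807).

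**Figure D5:**
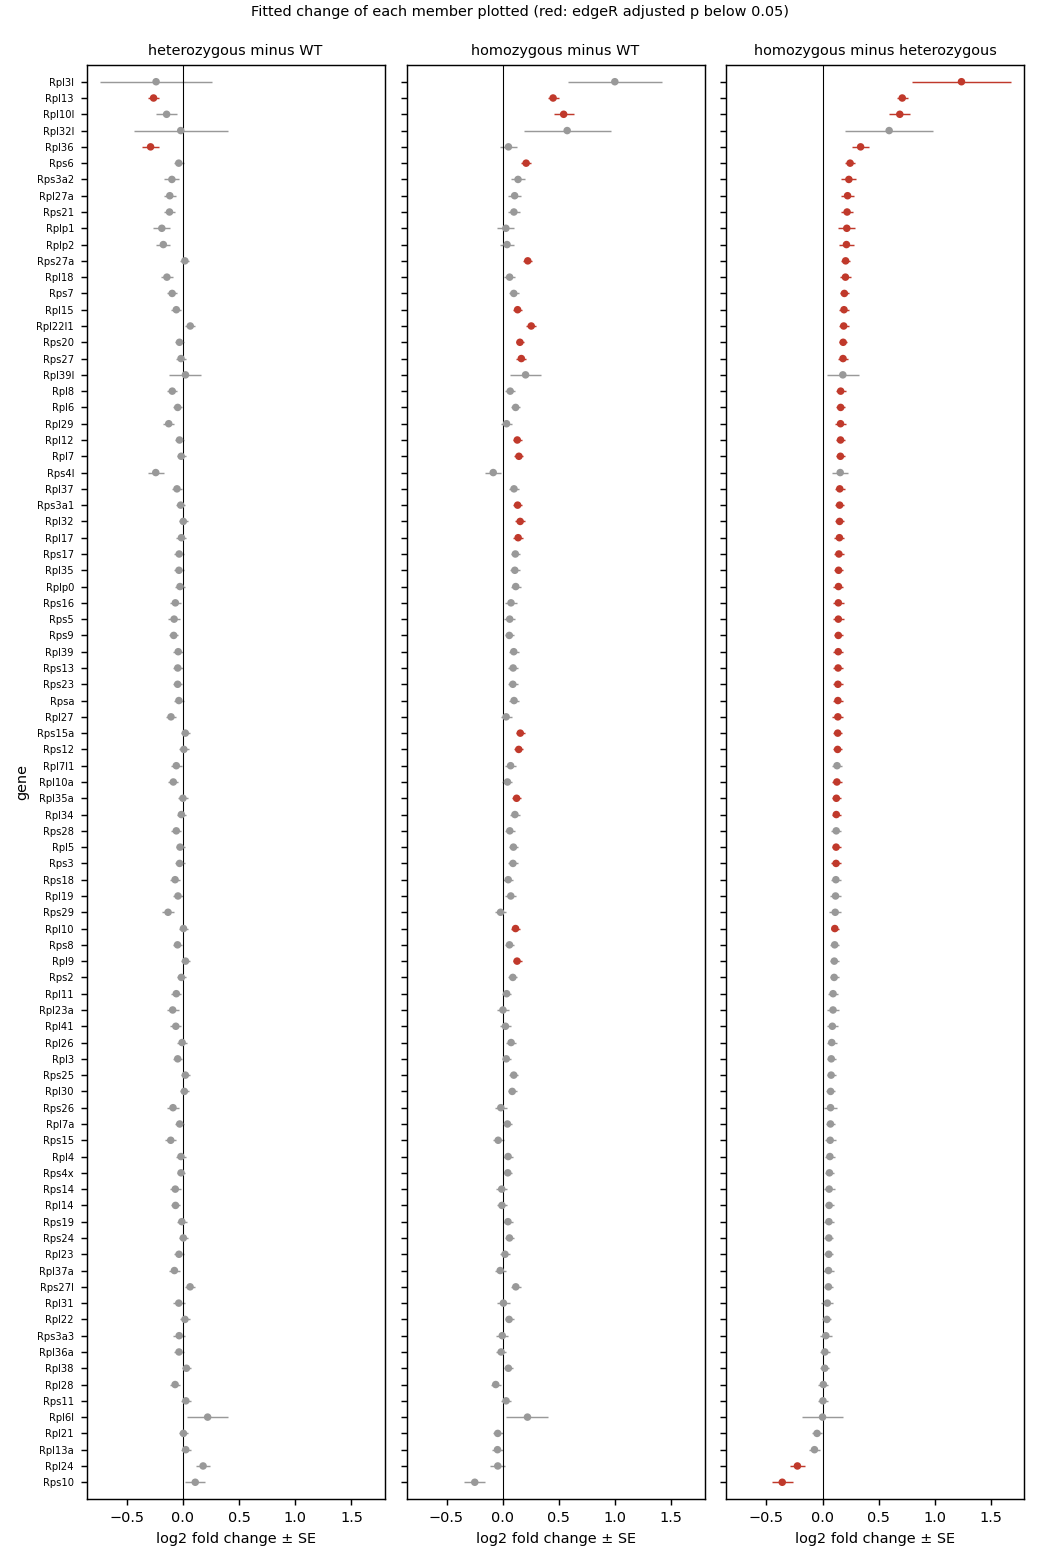
Fitted log2 fold change and SE of 87 tested members in the 3 comparisons, with genes in the same order in each panel and those at an adjusted p below 0.05 in red. The points lean slightly to the left of 0 in the first panel (median -0.04), to the right in the second (0.07) and further right in the third (0.13); the first 2 panels share the WT libraries.

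The tested members annotated as pseudogenes held fewer counts. *Rps4l* was at 264 and 250.2 CPM in WT, 241 and 195 in heterozygous cells and 258 and 228 in homozygous cells, with heterozygous replicate 2 again the lowest (log2 fold change against WT -0.24, adjusted p = 0.0563). *Rpl32l* had between 11 and 22 counts a library and *Rpl6l* between 62 and 72, and neither passed in any comparison. Of the 5, only *Rps3a2* passed, between homozygous and heterozygous cells.

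Genes of ribosomal proteins whose symbols fall outside the rule varied in direction. *Rack1*, a small subunit scaffold, was at 1991 and 2077 CPM in WT, 1996 and 1954 in heterozygous cells and 2251 and 2082 in homozygous cells. It passed only between homozygous and heterozygous cells (log2 fold change 0.13, adjusted p = 0.0249). *Fau*, which encodes the small subunit protein eS30, and *Rpl36al* passed in none of the 3 comparisons. The log2 fold changes of *Fau* were -0.16, -0.07 and 0.09, and those of *Rpl36al* 0.07, -0.21 and -0.28, in the order heterozygous against WT, homozygous against WT and homozygous against heterozygous.

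The remaining members with a known role are given for homozygous against heterozygous cells. *Rpsa*, the laminin receptor protein of the small subunit, was at 2197 and 2123 CPM in heterozygous cells and 2477 and 2269.96 in homozygous cells, and *Rps3*, at the mRNA entry site, at 1604 and 1601 against 1814 and 1668. Neither overlapped between these genotypes, with log2 fold changes of 0.14 (adjusted p = 0.0274) and 0.12 (adjusted p = 0.0495). Both calls were lost without homozygous replicate 1 (adjusted p = 0.274 and 0.398), without either heterozygous library and with total counts only, and they held under 13 and 6 of 17 alternatives. *Rpl26*, known to bind p53 mRNA, and *Rpl13a*, a part of an interferon-gamma translation switch, had values of 0.08 and -0.07 that missed the threshold. The 4 X-linked members (*Rpl10*, *Rpl36a*, *Rpl39* and *Rps4x*) had median log2 fold changes of -0.02, 0.07 and 0.08 in the order of the comparisons given for *Rpl36al*.

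Genes that act with the ribosome were read from the same fit for comparison. In homozygous against WT cells, 10.9% of all genes tested were higher and 10.5% lower. In heterozygous against WT cells, 2.23% were higher and 2.91% lower. Of 39 translation factors, 14 were higher and 0 lower in homozygous against WT cells, with a median of 0.09, and 0 changed in either direction in heterozygous cells. They included *Eif4g1*, the scaffold of the cap-binding complex, at 1249 and 1259 CPM in WT and 1461 and 1416 in homozygous libraries (0.20, adjusted p = 0.000636). Of 57 ribosome assembly factors, 14 were higher and 0 lower in homozygous against WT cells, with a median of 0.07, and 3 were lower in heterozygous cells. Of these 3, *Utp14a* is X-linked, while *Nob1* and *Utp4* lie on chromosome 8 and were among the higher in homozygous cells. The part of the chromosome 8 shift in these counts was not tested. *Mdn1*, an ATPase that remodels the pre-60S particle, rose by 0.57 (adjusted p = 4.45e-06), and *Nip7*, on chromosome 8, by 0.54 (adjusted p = 1.27e-08). The medians of both lists were close to that of the ribosomal proteins.

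Other lists varied. Of 15 tested genes of RNA polymerase I and its factors, only *Taf1c*, on chromosome 8, was higher in homozygous against WT cells, and the median was 0.00. The 77 tested genes of the mitochondrial ribosome, a separate particle, had 3 higher and 4 lower, with a median of -0.01. Of 21 regulators of ribosome production, *Eif4ebp1* (chromosome 8) and *Rptor* were higher and *Myc* was lower, from 105 and 101 CPM in WT to 83.2 and 78.9 in homozygous libraries (-0.35, adjusted p = 2.41e-05). Among 10 tested host genes of small nucleolar RNAs, several of which also carry TOP tracts, 2 were lower (*Snhg12* and *Snhg5*) and 0 higher, with a median of -0.18. *Snhg12* was low mainly in homozygous replicate 1, at 74.8 CPM against 97.9 in replicate 2 and 103 in both WT libraries. Set beside these, 23 of 26 tested fibroblast genes were lower in homozygous and 21 in heterozygous than in WT cells, with medians of -1.09 and -0.49. Of the 10 pluripotency genes, 6 were lower and 0 higher in heterozygous than in WT cells, 1 was lower and 1 higher in homozygous than in WT cells, and 8 were higher and 0 lower in homozygous than in heterozygous cells, with medians of -0.19, 0.03 and 0.19 in that order. The pluripotency gene higher in homozygous than in WT cells, *Zfp42*, lies on chromosome 8. The pluripotency list had the sign of the ribosomal protein medians in all 3 comparisons. The translation factors (-0.01, 0.09 and 0.10) and the assembly factors (-0.02, 0.07 and 0.10) did so too. Between homozygous and heterozygous cells, 12.9% of all genes were higher and 12.9% lower. Of the translation factors, 15 were higher and 1 lower, and of the assembly factors 23 were higher and 0 lower. Of the 77 genes of the mitochondrial ribosome, 10 were higher and 2 lower. The polymerase I list had 3 higher and 2 lower, and the regulators 4 higher and 3 lower. The host genes of small nucleolar RNAs had 0 higher and 4 lower, with a median of -0.17. Among the fibroblast genes, 1 was higher and 22 lower. The part of feeder and mESC RNA in the values of the ribosomal protein genes was not tested.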

How the data were processed

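Stranded libraries of polyadenylated RNA were sequenced by the authors. What the authors deposited is 1 table of raw read counts, not normalized, over 55385 genes and 6 libraries. The submitters' processing notes name Trimmomatic 0.39, STAR 2.6.1d, SAMtools 1.9, featureCounts 1.6.4, DESeq2 1.22.2 and mm10 (GRCm38); the annotation release, strand setting and treatment of multiply mapped reads are not given in the sources used here.

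Genotypes and replicate numbers came from the sample labels. Genes reaching 10 counts in 2 or more libraries (16951) were fitted with edgeR 4.0.16 (glmQLFit and glmQLFTest, TMM factors) in R 4.3.3, with all 6 libraries in 1 model of 3 genotypes. The common biological coefficient of variation was 3.52%. Calls used a Benjamini-Hochberg adjusted p below 0.05 over all genes, and separately the study's threshold of an absolute log2 fold change above 1. Counting error is small at these depths and other error is not covered by it. No test was made over the members as a set. Lengths, positions and GC content came from GENCODE vM21 (GRCm38), with the median-length principal transcript of each gene, and start sites from RefSeq. The symbol *Snhg4*, shared by 2 gene identifiers, was left out of the lists. The fit was tested on simulated data. Some items are not reported here by name, although counts over the members include them; the figures show 87 members.

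Alternative settings were other low-count filters, DESeq2 1.42.0 itself, and scaling by total counts, by DESeq2 size factors or by TMM factors taken without the members. Further ones were a robust fit, a replicate block, and a fit to just the 2 genotypes compared. Members were also summed with their named pseudogenes, and each library was left out in turn. Restriction to protein-coding members off chromosome 8, the comparison with GC content and a crossed block were added after seeing the data. The members, lists and tests were chosen with earlier results of these data known. Named with values are members past the study's threshold, the 5 highest and 5 lowest per comparison among those called without overlap between genotypes, members with a known role or a paralog, the 5 highest and 5 lowest by level, and those on chromosome 8; of other lists, at most 4 examples by size. Summaries were made in Python 3.11.15 with pandas 2.3.3, numpy 2.4.6 and matplotlib 3.10.9.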

Additional observations from a re-analysis of the deposited data

How the results depend on the processing

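Neither a median of the members nor a called fold change turned its direction under the alternatives run. The share of all genes passing was not taken under these alternatives. For heterozygous against WT cells, the 3 lower members became 1 with DESeq2, 1 with robust estimation, 1 among protein-coding members off chromosome 8, 6 with the replicate block, 7 with only the libraries compared and 12 with no filter on low counts; leaving out 1 library gave 0 to 8. For homozygous against WT cells, total counts only gave 7 higher, 2 lower and a median of 0.017, and 1 member (*Rps10*) was lower with no filter and when members were summed with their named pseudogenes; leaving out 1 library gave 5 to 37 higher, 0 to 1 lower, 0 to 1 past the study's threshold and medians from 0.028 to 0.13. For homozygous against heterozygous cells, total counts only gave 16 higher, 4 lower and a median of 0.060, and DESeq2 gave 1 lower; the 1 member past the study's threshold (*Rpl3l*) was lost (0) with DESeq2, total counts only, 10 counts in all libraries and the replicate block. Leaving out 1 library gave 14 to 62 higher, 1 to 2 lower, 0 to 1 past that threshold and medians from 0.081 to 0.18. The members' share of counts ranged over 6.45 to 6.62% (WT), 6.30 to 6.46% (heterozygous) and 6.49 to 6.81% (homozygous) from library to library. Beyond the constructions themselves (fewer libraries or genes), the cause was not tested. The replicate numbers are shared across genotypes only as numbers, with 2 pairs and correlations of deviations of 0.03, -0.12 and 0.01 over all genes (WT with heterozygous, WT with homozygous, heterozygous with homozygous). Over the 88 members these were 0.60, -0.37 and -0.45. As a block they gave 0 higher and 6 lower, 14 and 0, and 41 and 2 in the order of the comparisons, and the crossed pairing of homozygous with WT replicates gave 27 higher and 0 lower. The precision is limited by 2 libraries per genotype.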
